A study of Mus musculus with 7 samples.

Results

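Membrane transporters and ion channels were examined in purified mouse astrocytes, through 56 probe sets among 22206 that measure transcript clusters on 7 single-colour Affymetrix arrays. The members were taken by gene symbol from a table of 1778 probe sets that the authors deposited, as the families Slc, Abca to Abcd, Abcg, Atp1, Atp2, Kcn, Cacn, Scn, Clcn and Trp, without Slc1a3 and Slc15a3. Of the 56, 32 belong to solute carrier families, 7 are ABC transporters, 3 are P-type pumps and 14 are channels or channel subunits, and no Clcn gene was among them. One carries a solute carrier symbol without being a carrier, Slc9a3r1, which encodes the scaffold protein NHERF1. Atp10a, a lipid flippase gene whose symbol shares the Atp1 prefix only by its letters, was left out.

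The arrays held astrocytes from 7 mice in 3 groups, 1 animal to an array. CETP transgenic mice on the cholesterol diet (n = 3, replicates 1, 2 and 3) were of the strain B6.CBA-Tg(CETP)5203Tall/J and were fed 1% cholesterol for 2 months, noted in the growth protocol as month 2 to 4. CETP transgenic mice labelled as standard diet (n = 2, replicates 4 and 5) carry that label on each sample, while the growth protocol describes the cholesterol diet for transgenic animals without exception. Wild-type mice on the standard diet (n = 2, replicates 2 and 3) are the controls, and the labels give no age or strain for them. CETP, absent from normal mice, is a plasma protein that swaps cholesteryl esters and triglycerides among lipoproteins. The series' design text says that dietary cholesterol induces its expression in these mice, and the labels do not name the promoter or say which cells express it. The cells were enriched from whole brains on magnetic beads with an ACSA-2 kit, and the labels call them positive for GLAST, the glutamate transporter made from Slc1a3. ACSA-2 is known to recognise the sodium pump subunit made from Atp1b2, and GLAST is the antigen of another antibody, ACSA-1.

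Solute carriers move amino acids, sugars, monocarboxylates, metals and vitamins down or against gradients, ABC transporters and P-type pumps spend ATP to do so, and ion channels let ions pass when opened. In the brain, astrocytes take up transmitter, release lactate and buffer potassium through such proteins. Vessel walls use them to form the blood-brain barrier, the choroid plexus to secrete cerebrospinal fluid, and neurons to fire and reset. The families are thus expressed across many cell types of the brain. In such bulk samples, fewer cells of a type and less RNA per cell cannot be told apart.

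The members were chosen by a measured difference. The lowest absolute fold in the authors' deposited table is 1.4, and its folds equal the CETP standard-diet over CETP cholesterol-diet average (Tukey biweight) within 0.0051 for 98.5% of entries. Differences between the CETP diet groups are therefore described without a test. Each CETP group set against wild type shares arrays with that choice and is described in the same way. The mean of all 5 CETP arrays against wild type is uncorrelated with the choosing difference if arrays vary equally, and this contrast alone was tested. Probe sets outside the table carry no names here, so a comparison with unselected transporters was not made. The cell type markers named below come from that table too, so their differences between the diet groups were chosen in the same way.

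Values are log2 signals, which can be compared between arrays for 1 probe set but not between probe sets. Negative control probes had medians of 7.48 to 7.69 on the 7 arrays. Of the 56 members, 31 lay above that median on all arrays, 25 lay at or below it on at least 1 array, and 11 did so on all 7. The share above it on all arrays was 43.7% over all 22206 probe sets. The 95th percentile of the negative controls was exceeded on every array by 5 members, or 8.93%, and by 7.03% of all probe sets. A difference between values near or under the control median is uncertain in size. The astrocyte markers Slc1a3 (11.59 to 13.68) and Sox9 (14.43 to 15.31) were above the control median on all 7 arrays, and the other non-member astrocyte markers on the list were not named here.

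Promoter sequences were drawn from RefSeq (build GRCm38.p6) as windows of 300 bases around a gene's start. They matched 39 of the 55 genes that were found by their own symbol, in 53 windows. The motifs searched, on both strands, were a sterol regulatory element (TCACNCCAC), an interferon-type element (GAAANNGAA) and an E-box (CACGTG). The sterol element was in 2 member windows, both of Slc23a2 and overlapping, where 1.24% of all 32851 windows hold it. The interferon-type element was in 2 windows (Cacnb1 and Slc35f6, against 8.56% of all windows). The E-box was in 5 (Abca15, Abca8a, Abcc4, Slc12a9 and Slc25a36, against 7.15% of all windows). A match is only a run of letters, and its absence says nothing about a factor. The first 3 windows below belong to genes whose CETP arrays all lay above both wild-type arrays, and none of the 3 motifs is in them. Slc23a2, the ascorbate transporter gene, is shown for its sterol element, in capitals, and was chosen after the search.
Slc9a3r1, chr11:115163091-115163390, plus strand: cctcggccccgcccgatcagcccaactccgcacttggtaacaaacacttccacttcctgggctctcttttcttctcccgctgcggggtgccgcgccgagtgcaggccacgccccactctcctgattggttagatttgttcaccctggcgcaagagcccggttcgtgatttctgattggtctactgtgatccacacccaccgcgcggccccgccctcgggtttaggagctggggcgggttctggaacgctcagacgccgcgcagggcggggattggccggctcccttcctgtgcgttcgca
Abcb1b, chr5:8797897-8798196, plus strand: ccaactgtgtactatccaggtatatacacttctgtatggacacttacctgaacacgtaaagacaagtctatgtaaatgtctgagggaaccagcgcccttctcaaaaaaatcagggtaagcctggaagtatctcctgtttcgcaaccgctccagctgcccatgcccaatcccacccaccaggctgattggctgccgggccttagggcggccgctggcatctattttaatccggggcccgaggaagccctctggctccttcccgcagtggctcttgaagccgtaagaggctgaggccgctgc
Scn2b, chr9:45117626-45117925, plus strand: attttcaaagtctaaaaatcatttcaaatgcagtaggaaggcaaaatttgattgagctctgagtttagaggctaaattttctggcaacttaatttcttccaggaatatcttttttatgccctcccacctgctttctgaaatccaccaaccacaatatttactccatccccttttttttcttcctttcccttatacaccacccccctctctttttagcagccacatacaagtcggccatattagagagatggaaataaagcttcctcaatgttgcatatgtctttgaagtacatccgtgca
Slc23a2, chr2:132145271-132145570, minus strand: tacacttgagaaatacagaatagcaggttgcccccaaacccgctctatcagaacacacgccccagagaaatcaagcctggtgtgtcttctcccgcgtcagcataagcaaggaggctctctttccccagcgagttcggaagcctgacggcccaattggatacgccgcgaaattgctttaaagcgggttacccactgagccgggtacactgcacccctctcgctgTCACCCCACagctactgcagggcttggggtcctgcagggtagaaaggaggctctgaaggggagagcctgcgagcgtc

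Across all 5 CETP arrays against wild type, 4 members lay above both wild-type arrays on every CETP array, and none lay below both on every one. They were the scaffold gene Slc9a3r1, the sodium channel subunit gene Scn2b, the T-type calcium channel gene Cacna1g and Abcb1b, which encodes a P-glycoprotein efflux pump. Their log2 differences ran between 0.70 and 0.86, or 1.62-fold to 1.81-fold. No member passed an adjusted p of 0.05 in limma, over all 22206 probe sets, and neither did any other probe set (smallest adjusted p = 0.459). The smallest adjusted p among members was 0.496.

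At an unadjusted p under 0.05, limma picked 7 of 56 members, or 12.5%, where 8.32% of all probe sets were picked. On the higher side these were 6 members, or 10.7%, beside 3.17% of all probe sets, and on the lower side 1, or 1.79%, beside 5.15%. Arrays did not overlap for 4 members, or 7.14%, where 13.6% of all probe sets did not overlap. By direction 4 were higher, or 7.14% beside 5.12% of all probe sets, and 0 were lower, beside 8.53%. The median member difference was 0.04, beside -0.05 over all probe sets, with 30 members above 0 and 26 below, where 42.7% of all probe sets were above 0 and 57.3% below. The median absolute difference was 0.26 for members and 0.19 for all probe sets. On the higher side, the shares of members by unadjusted p and by lack of overlap were both above those of all probe sets. On the lower side both were below. Over both directions, the share by unadjusted p was above that of all probe sets and the share without overlap was below it. A gap between the CETP groups, which chose the members, widens the range of the CETP arrays. Lack of overlap with wild type thus depends in part on that choice. The counts in this comparison were not tested, and no shift of transporters and channels as a body was read from them.

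**Figure D1:**
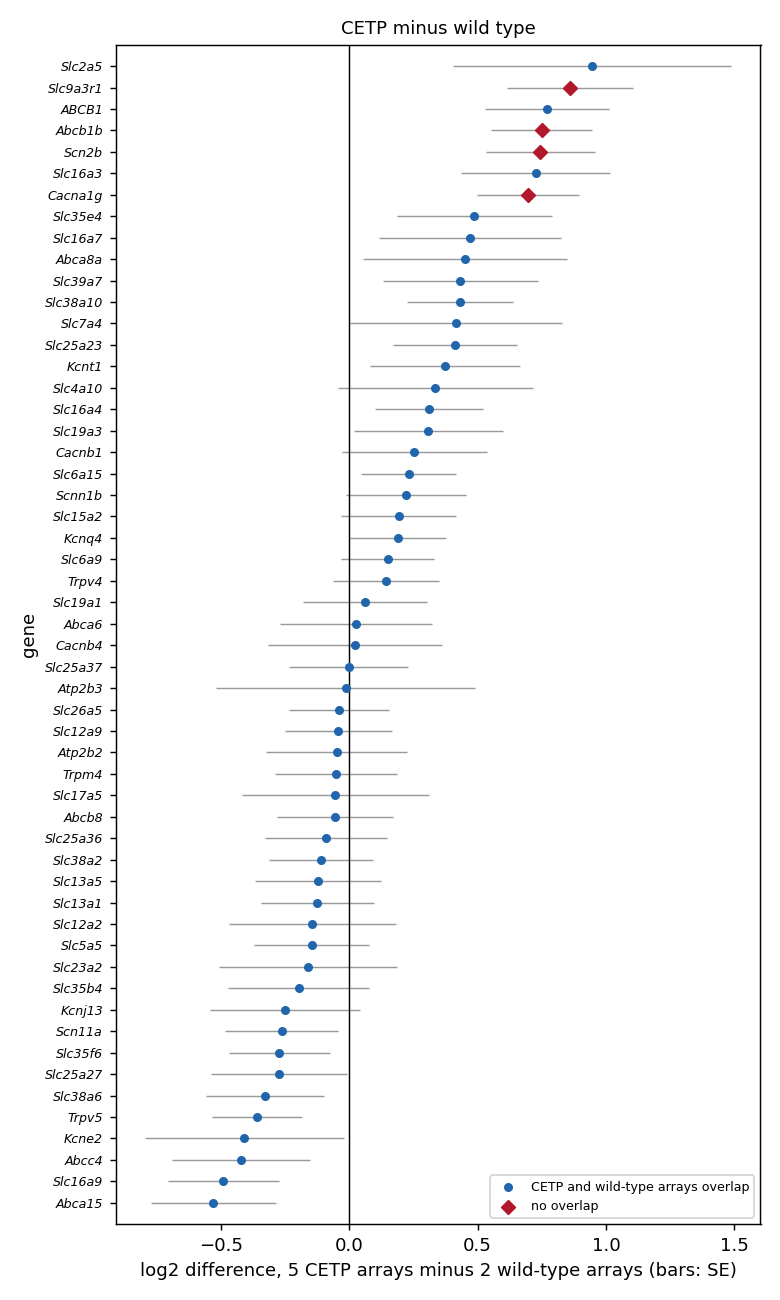
Log2 difference of the 5 CETP arrays minus the 2 wild-type arrays (horizontal axis) for 54 of the 56 members (vertical axis), with SE bars from limma. Red diamonds mark the 4 members whose arrays did not overlap, at 0.70 to 0.86, and blue points lie on both sides of 0.

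Among ABC transporters, only the 2 probe sets for P-glycoprotein had a limma unadjusted p under 0.05, and neither passed an adjusted p of 0.05. P-glycoprotein exports lipophilic drugs and lipids, and in mice 2 related genes encode it. Transcripts of these genes may not be told apart by the 2 probe sets here. Abcb1b measured 9.03, 9.42 and 9.45 on the cholesterol-diet arrays, 10.08 and 9.86 on the CETP standard-diet arrays, and 8.72 and 8.91 in wild type. All 5 CETP values were above both wild-type values, and the 2 standard-diet values were above all 3 cholesterol-diet values. The mean over CETP arrays was 9.57 ± 0.41 (SD, n = 5) against 8.82 ± 0.13 in wild type (SD, n = 2), a difference of 0.75 ± 0.20 (SE; limma unadjusted p = 0.004, adjusted p = 0.496).

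The probe set that the table names ABCB1, a name RefSeq gives only as a synonym of Abcb1b, showed the same order of groups. It measured 11.03, 11.70 and 11.37 on the cholesterol diet, 11.92 and 12.31 under the standard-diet label, and 10.67 and 11.12 in wild type. Cholesterol-diet replicate 1 lay between the 2 wild-type arrays, so the groups overlapped. The difference over all CETP arrays was 0.77 ± 0.24 (limma unadjusted p = 0.010, adjusted p = 0.531). By group, the difference from wild type was 0.47 ± 0.26 on the cholesterol diet and 1.22 ± 0.29 under the standard-diet label, and for Abcb1b these were 0.48 ± 0.22 and 1.15 ± 0.24. As for vessel genes, the mean of the 7 named non-member vessel markers, of 29 on the list, was 9.47 to 9.74 on the cholesterol diet, 10.09 and 9.66 under the standard-diet label, and 9.11 and 9.22 in wild type. Of the 7, 5 had lower means on the cholesterol diet than under the standard-diet label, and Vwf and Pdgfrb had higher ones. Both P-glycoprotein probe sets had lower means there too. All 7 markers were in the authors' table, so a diet gap chose them as well, and nothing was read from the shared direction. Pdgfrb was below wild type under the standard-diet label (-0.26) and Kdr on the cholesterol diet (-0.04). Standard-diet replicate 4 had the highest vessel mean and the highest Abcb1b value, while ABCB1 was highest in replicate 5. Their part in the P-glycoprotein values was not tested.

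The ABC member on the vessel list had another order of groups. Abcc4, which exports organic anions and cyclic nucleotides, measured 7.59, 7.65 and 8.24 on the cholesterol diet, 8.36 and 7.87 under the standard-diet label, and 8.03 and 8.69 in wild type. The groups overlapped, and its difference over all CETP arrays was -0.42 ± 0.27 (limma unadjusted p = 0.152). It differed less than 1.4-fold by plain means between the diet groups (-0.29). The remaining 4 ABC members ranged from -0.53 to 0.45 against wild type with no unadjusted p under 0.05.

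**Figure D2:**
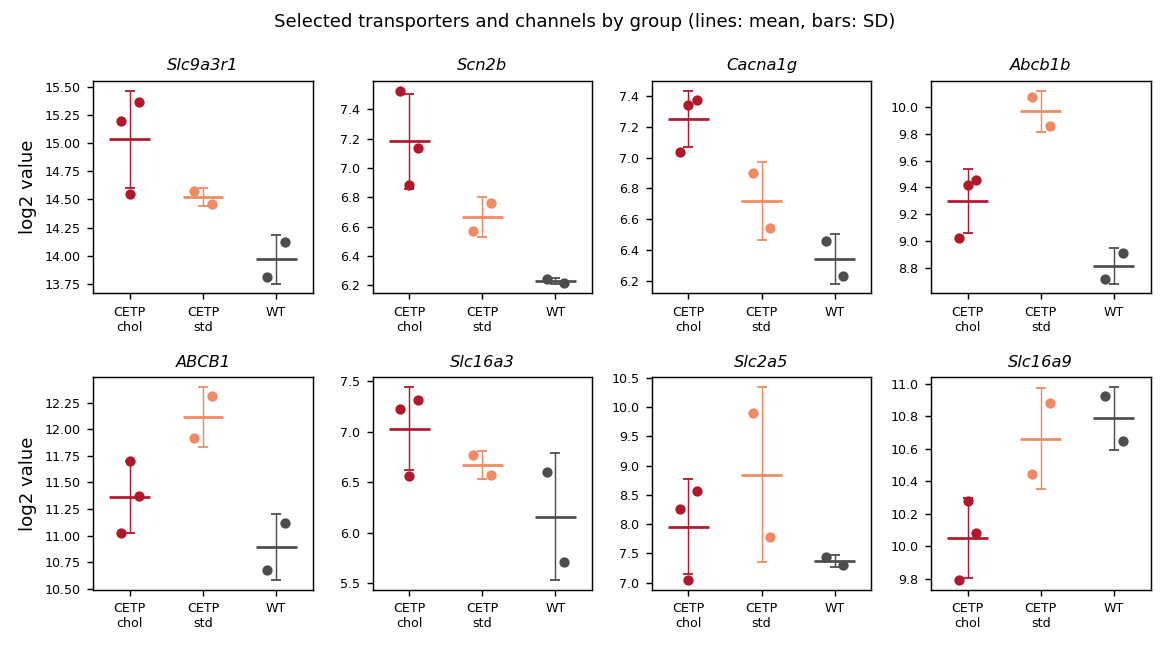
Log2 values of 8 members (vertical axes, each with its own range) by group, with points for arrays, lines for means and bars for SD. Abcb1b and ABCB1 are highest under the CETP standard-diet label, while Slc9a3r1, Scn2b and Cacna1g have their highest means on the cholesterol diet.

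Of the 3 P-type pumps, which hold sodium, potassium and calcium gradients, all had lower means on the cholesterol diet than under the standard-diet label. Atp2b3, a plasma membrane calcium pump, had the largest such difference of all members, at -1.35. It measured 8.96, 7.98 and 6.70 on the cholesterol diet, 8.77 and 9.69 under the standard-diet label, and 8.27 and 8.59 in wild type. Cholesterol-diet replicate 1 reached the standard-diet range, and replicate 3 lay lowest, under the control median. Without replicate 3 the difference shrank to -0.76. The spread within the cholesterol group (SD 1.13) was close to the difference itself, and over all CETP arrays Atp2b3 differed from wild type by -0.01 ± 0.50.

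Atp2b2, a calcium pump gene most abundant in neurons, measured 10.93, 10.36 and 10.40 on the cholesterol diet, 10.64 and 11.57 under the standard-diet label, and 10.78 and 10.88 in wild type. The groups overlapped, and its difference over all CETP arrays, -0.05 ± 0.28, did not exceed its error. The only named non-member neuronal marker, Camk2a, was 8.81 to 9.23 on the cholesterol diet, 9.04 and 8.04 under the standard-diet label, and 8.21 and 8.20 in wild type, so it did not order the groups as Atp2b2 did.

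Sodium and calcium channel subunits included 2 of the 4 members without overlap. Scn2b encodes the beta-2 subunit that anchors and tunes voltage-gated sodium channels. It measured 7.53, 6.88 and 7.13 on the cholesterol diet, 6.57 and 6.76 under the standard-diet label, and 6.24 and 6.22 in wild type. The 3 groups were stepped without overlap, highest on the cholesterol diet, and the difference over all CETP arrays was 0.74 ± 0.21 (limma unadjusted p = 0.006, adjusted p = 0.496). All 7 values were under the negative control median, so the level itself may be background.

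Cacna1g encodes the pore of a low-voltage-activated calcium channel. It measured 7.04, 7.34 and 7.37 on the cholesterol diet, 6.90 and 6.54 under the standard-diet label, and 6.46 and 6.23 in wild type, again stepped without overlap. Its difference over all CETP arrays was 0.70 ± 0.20 (limma unadjusted p = 0.006, adjusted p = 0.498). It too stayed under the control median on all 7 arrays. Cacnb1, a beta subunit that brings calcium channels to the membrane, had the largest difference on the side higher on the cholesterol diet (0.84). Its values were 13.19, 12.69 and 13.59 there, 12.69 and 11.94 under the standard-diet label, and 12.62 and 12.51 in wild type. Over all CETP arrays it differed from wild type by 0.25 ± 0.28. The sensory neuron channel gene Scn11a (-0.26 ± 0.22) and the epithelial sodium channel subunit gene Scnn1b (0.22 ± 0.23) lay at or under the control median on all 7 arrays.

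Potassium channel members included a pair known from the choroid plexus. Kcnj13 encodes the inward rectifier Kir7.1 of its epithelium. It measured 11.32, 10.61 and 10.11 on the cholesterol diet, 11.29 and 11.54 under the standard-diet label, and 11.23 and 11.22 in wild type. Cholesterol-diet replicates 2 and 3 were the lowest of the 7 arrays, while replicate 1 lay with the others. Kcne2, an accessory subunit found in the same epithelium, measured 7.78, 6.26 and 6.66 on the cholesterol diet, 7.03 and 7.84 under the standard-diet label, and 7.35 and 7.69 in wild type. Replicates 2 and 3 were again the lowest. Both lay under the control median, as did standard-diet replicate 4 and wild-type replicate 2. Differences over all CETP arrays were -0.25 ± 0.29 for Kcnj13 and -0.41 ± 0.39 for Kcne2.

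Choroid plexus markers differed between the same animals. Ttr, the transthyretin gene, measured 16.70, 15.46 and 14.99 on the cholesterol diet, 16.17 and 16.67 under the standard-diet label, and 16.48 and 15.86 in wild type. Kl measured 8.12, 6.85 and 6.54 on the cholesterol diet, 7.35 and 7.87 under the standard-diet label, and 6.70 and 6.92 in wild type. Kl lay at or under the control median on 5 arrays, all but cholesterol-diet replicate 1 and standard-diet replicate 5. Ttr and Kl are 2 of 10 genes on that list, and both were themselves in the authors' table. Among cholesterol-diet arrays, replicate 1 was highest in Ttr, Kl, Kcnj13, Kcne2 and Atp2b3. It was also highest in Slc4a10, a sodium-driven bicarbonate exchanger of choroid plexus and neurons, at 9.35, 8.64 and 7.74. Slc4a10 measured 8.88 and 9.60 under the standard-diet label and 8.51 and 8.50 in wild type, and its difference over all CETP arrays was 0.34 ± 0.38. Atp2b3 and Slc4a10 are not on the choroid plexus list, and Slc4a10 is on the neuron list. Both were set beside the markers after their values were seen. Members with another order among cholesterol-diet arrays, such as Slc12a2 (11.13, 11.57 and 10.28), were not set there. Trpv4, also a member on the choroid plexus list, had another order: among cholesterol-diet arrays replicate 3 was highest (6.57), and over all arrays standard-diet replicate 4 was (7.14). The part of choroid plexus tissue in these values was not tested.

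**Figure D3:**
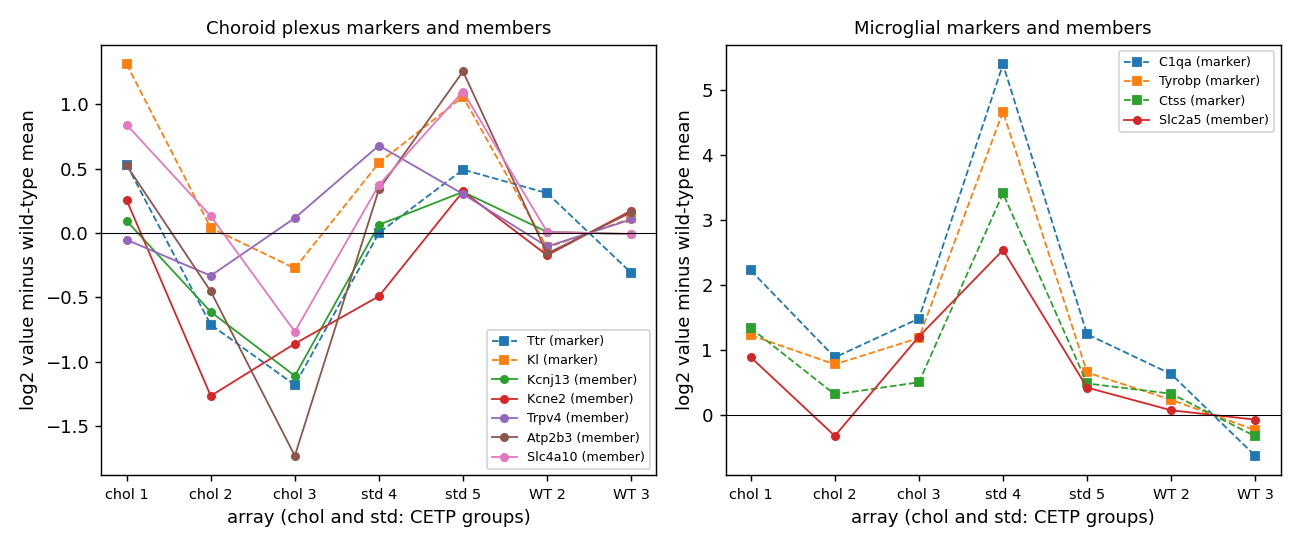
Log2 value minus the wild-type mean (vertical axes) on each of the 7 arrays (horizontal axes), for choroid plexus markers and 5 members at left and for microglial markers and Slc2a5 at right; lines only join the points of a gene. At left, cholesterol-diet replicate 3 is low and standard-diet replicate 5 high in Ttr, Kcnj13 and Atp2b3, while Trpv4 is highest in standard-diet replicate 4, as are all genes at right.

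The sodium-activated channel gene Kcnt1 differed from wild type by 0.37 ± 0.29 over all CETP arrays. Among TRP channels, the calcium channel gene Trpv5 lay at 4.24 to 4.33 on the cholesterol diet, 3.72 and 3.67 under the standard-diet label, and 4.53 and 4.29 in wild type. It was far below the control median everywhere, and its difference was -0.36 ± 0.17 (limma unadjusted p = 0.068). The osmosensitive channel gene Trpv4 measured 6.40, 6.13 and 6.57 on the cholesterol diet, 7.14 and 6.76 under the standard-diet label, and 6.35 and 6.56 in wild type. It also stayed under the control median on all arrays, with a difference of 0.14 ± 0.21. Trpm4, a channel for monovalent cations that calcium opens, differed by -0.05 ± 0.24.

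Carriers of sugars and monocarboxylates gave 2 of the 7 members with an unadjusted p under 0.05. Slc16a3 encodes MCT4, through which astrocytes export lactate. It measured 7.22, 6.56 and 7.31 on the cholesterol diet, 6.77 and 6.57 under the standard-diet label, and 6.61 and 5.72 in wild type. Wild-type replicate 2 lay within the CETP range, replicate 3 was the lowest array, and no value exceeded the control median. The difference of 0.73 ± 0.29 (limma unadjusted p = 0.032, adjusted p = 0.571) was 0.28 without wild-type replicate 3 and 1.17 without wild-type replicate 2. Slc16a9, a monocarboxylate carrier relative, measured 9.79, 10.28 and 10.08 on the cholesterol diet, 10.44 and 10.88 under the standard-diet label, and 10.92 and 10.65 in wild type. All cholesterol-diet values lay under both wild-type values while standard-diet replicate 5 lay between them. Over all CETP arrays it differed by -0.49 ± 0.22 (limma unadjusted p = 0.049, adjusted p = 0.599).

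Slc2a5 encodes the fructose transporter GLUT5, which in the brain is a microglial gene. It measured 8.25, 7.04 and 8.57 on the cholesterol diet, 9.90 and 7.79 under the standard-diet label, and 7.44 and 7.29 in wild type. The standard-diet replicates differed by over 2 log2 units, replicate 4 being the highest of all arrays. The difference over all CETP arrays, 0.95 ± 0.54, was the largest of any member but had a limma unadjusted p of 0.113, and it was 0.55 without replicate 4. The mean of the 11 named non-member microglial markers, of 20 on the list, was 7.74 to 8.60 on the cholesterol diet. It was 11.10 in standard-diet replicate 4 and 7.98 in replicate 5, and 7.64 and 7.25 in wild type. The part of microglia in the Slc2a5 values was not tested. Without replicate 4 the diet difference of Slc2a5 turned to 0.17, against -0.89 with it. The lactate and pyruvate carrier gene Slc16a7 also turned, to 0.23 without replicate 5, against -0.20 with it.

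Among ion carriers and their partners, NHERF1, the product of Slc9a3r1, ties membrane transporters to the cytoskeleton in fine astrocyte processes. Slc9a3r1 measured 15.19, 14.55 and 15.36 on the cholesterol diet, 14.58 and 14.46 under the standard-diet label, and 13.82 and 14.12 in wild type. All 5 CETP values exceeded both wild-type values, and the diet groups overlapped at replicate 2 of the cholesterol diet. The difference was 0.86 ± 0.24, or 1.81-fold (limma unadjusted p = 0.006, adjusted p = 0.496). Its values were above the 95th percentile of negative controls on every array, unlike the other 3 members without overlap. By group it differed from wild type by 1.07 ± 0.27 on the cholesterol diet and 0.55 ± 0.29 under the standard-diet label. Slc1a3, an astrocyte marker that is no member, also averaged higher in CETP arrays (0.87 ± 0.35), with 13.61, 12.67 and 13.68 on the cholesterol diet, 12.62 and 12.20 under the standard-diet label, and 12.59 and 11.59 in wild type. Sox9, the other astrocyte marker named here, averaged 0.31 ± 0.26 higher, and its value in cholesterol-diet replicate 2 (14.43) lay below both wild-type arrays. Whether these markers bear on Slc9a3r1 was not tested.

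Amino acid carriers overlapped between CETP and wild-type arrays throughout. Slc38a10 measured 10.97, 10.90 and 10.66 on the cholesterol diet, 11.50 and 11.81 under the standard-diet label, and 10.52 and 10.95 in wild type. Both standard-diet values lay above all others, and the difference over all CETP arrays was 0.43 ± 0.21 (limma unadjusted p = 0.064). Its relative Slc38a6 differed by -0.33 ± 0.23. The glial glycine transporter gene Slc6a9 measured 9.92, 9.72 and 9.98 on the cholesterol diet, 9.45 and 9.32 under the standard-diet label, and 9.42 and 9.64 in wild type. The cholesterol-diet values were the 3 highest, and the difference over all CETP arrays was 0.15 ± 0.18. The other 3 carriers of this kind ranged from -0.11 to 0.42.

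Organelle carriers and vitamin transporters gave no unadjusted p under 0.05. The mitochondrial ATP-magnesium carrier gene Slc25a23 measured 15.11, 14.65 and 15.13 on the cholesterol diet, 14.68 and 14.25 under the standard-diet label, and 14.06 and 14.64 in wild type. Only the cholesterol-diet arrays were all above wild type, and over all CETP arrays it differed by 0.41 ± 0.24. The mitochondrial carrier gene Slc25a27 differed by -0.27 ± 0.27 and the zinc transporter gene Slc39a7, of the early secretory pathway, by 0.43 ± 0.30. In the family of nucleotide-sugar transporters Slc35e4 differed by 0.49 ± 0.30, which turned to -0.11 without wild-type replicate 3 and was 1.08 without wild-type replicate 2. Slc35f6 differed by -0.27 ± 0.20, and Slc35b4 by -0.20 ± 0.27, or by 0.14 without wild-type replicate 2.

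The thiamine transporter gene Slc19a3, which is rich in brain vessels, measured 8.14, 8.96 and 8.95 on the cholesterol diet, 9.87 and 9.09 under the standard-diet label, and 8.71 and 8.68 in wild type. Both standard-diet values were above all others. Over all CETP arrays it differed by 0.31 ± 0.29, and the folate carrier gene Slc19a1 by 0.06 ± 0.24. Slc15a2, the peptide transporter PEPT2 of astrocytes, measured 12.57, 11.84 and 12.19 on the cholesterol diet, 11.82 and 11.58 under the standard-diet label, and 11.90 and 11.72 in wild type. The cholesterol-diet values all lay above the standard-diet ones, the CETP arrays overlapped with wild type, and the difference over all CETP arrays was 0.19 ± 0.23. The sulfate carrier gene Slc13a1 differed by -0.12 ± 0.22 and the lysosomal sialic acid exporter gene Slc17a5 by -0.05 ± 0.36.

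**Figure D4:**
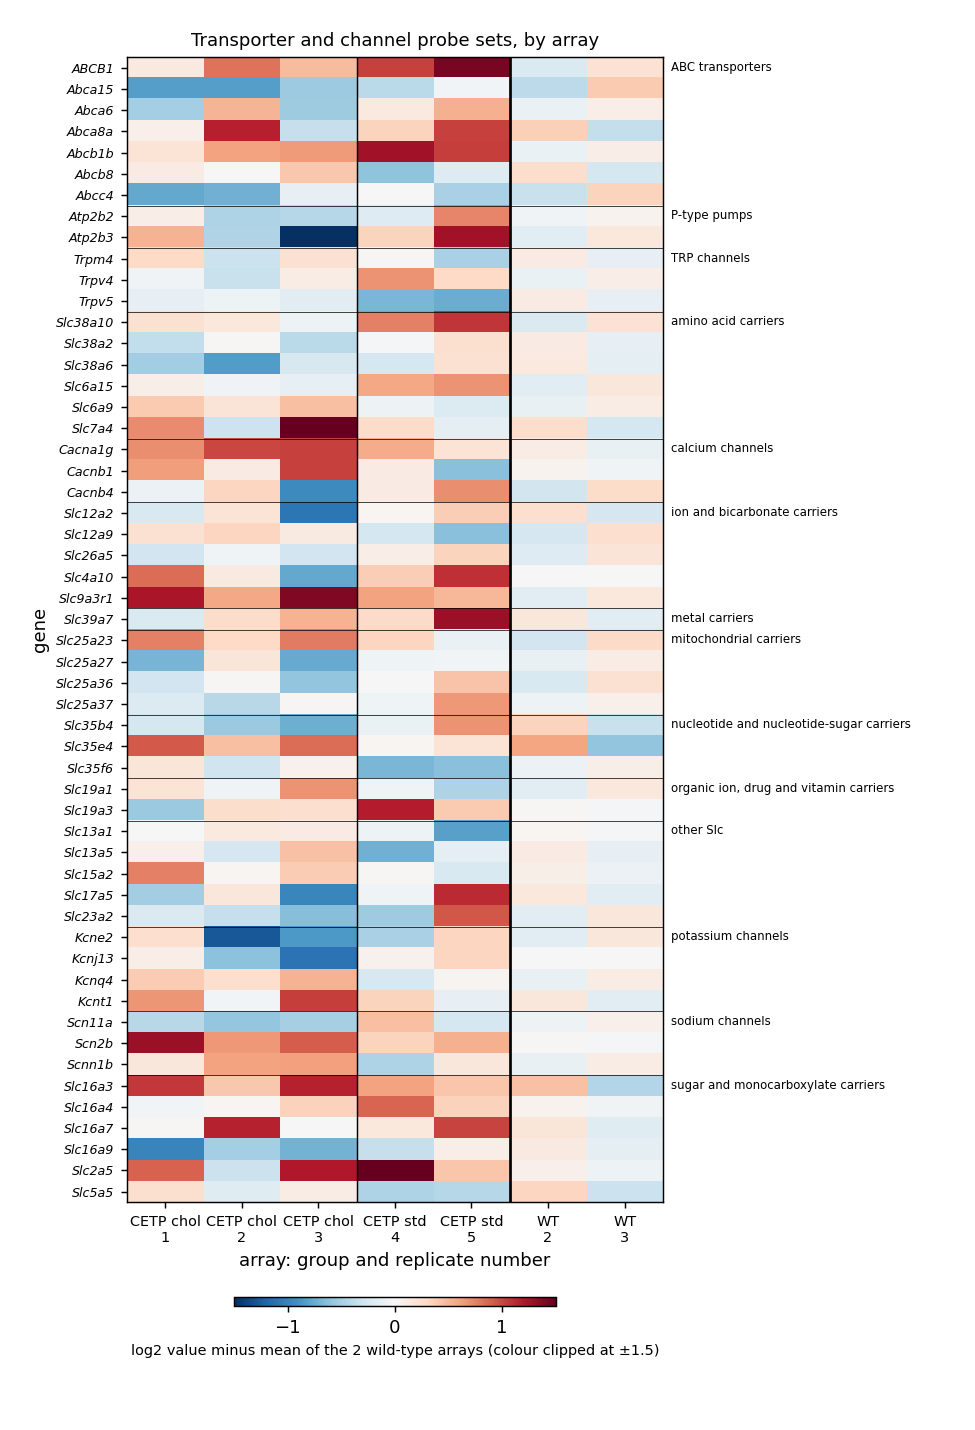
Log2 value minus the mean of the 2 wild-type arrays (colour) for 54 of the 56 members (rows, grouped by role) on the 7 arrays (columns). Red is higher and blue lower than wild type, and rows differ in which CETP arrays are red. Slc2a5 is red on all but cholesterol-diet replicate 2 and highest in standard-diet replicate 4, and Slc9a3r1 is red on all 5 CETP arrays.

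Each CETP group was then set beside wild type, as a description. On the cholesterol diet 14 of 56 members did not overlap with wild type, or 25.0%, where 25.1% of all probe sets did not. Of the 14, 9 were higher than wild type (9.98% of all probe sets) and 5 lower (15.1%). The median difference was 0.06, with 29 members above 0 and 27 below, beside 43.6% and 56.4% of all probe sets. Under the standard-diet label 24 members did not overlap, or 42.9%, beside 31.4% of all probe sets, and 18 of them were higher (12.2% of all probe sets) and 6 lower (19.3%). The median difference was 0.20, with 36 above 0 and 20 below, beside 42.7% and 57.3% of all probe sets. Both differences share the wild-type arrays, and each CETP group entered the choice of members, so nothing was read from their gap.

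Between the diet groups themselves, 22 members had higher and 34 lower means on the cholesterol diet than under the standard-diet label, beside 49.7% and 50.3% of all probe sets. Their arrays did not overlap for 24 of 56, beside 18.5% of all probe sets. They split into 12 higher (9.91% of all probe sets) and 12 lower (8.56%), counts that the choice of members fixes in part. By plain means 47 members differed at least 1.4-fold. The smallest plain differences on the higher side were 0.30 for Trpm4 and 0.36 for Slc16a3. On the lower side they were -0.20 for Slc16a7 and -0.29 for Abcc4. The table's own averages are not plain means, and its lowest absolute fold is 1.4.

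The largest differences after Atp2b3 on the lower side were -0.97 for Slc17a5, -0.89 for Slc2a5, -0.81 for Slc38a10 and -0.81 for Slc35b4. After Cacnb1 on the higher side came Slc12a9 (0.68), Slc35f6 (0.64), Slc35e4 (0.62) and Scnn1b (0.61). Slc17a5 measured 9.05, 9.74 and 8.59 on the cholesterol diet, 9.51 and 10.68 under the standard-diet label, and 9.72 and 9.42 in wild type. Only standard-diet replicate 5 stood above the rest, and without it the difference was -0.38.

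Single arrays weighed on these differences. Without standard-diet replicate 5, 24 members still differed at least 1.4-fold between the diet groups, and 2 changed sign, Slc16a7 and Slc23a2. Slc23a2 measured 13.55, 13.42 and 13.13 on the cholesterol diet, 13.23 and 14.70 under the standard-diet label, and 13.59 and 13.94 in wild type. Its diet difference was -0.60 with all arrays and 0.13 without replicate 5. Without cholesterol-diet replicate 3, 29 members differed at least 1.4-fold and none changed sign. Without standard-diet replicate 4, 41 members differed at least 1.4-fold and 1, Slc2a5, changed sign. Without cholesterol-diet replicate 1 or 2, 36 or 46 members did, and none changed sign.

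**Figure D5:**
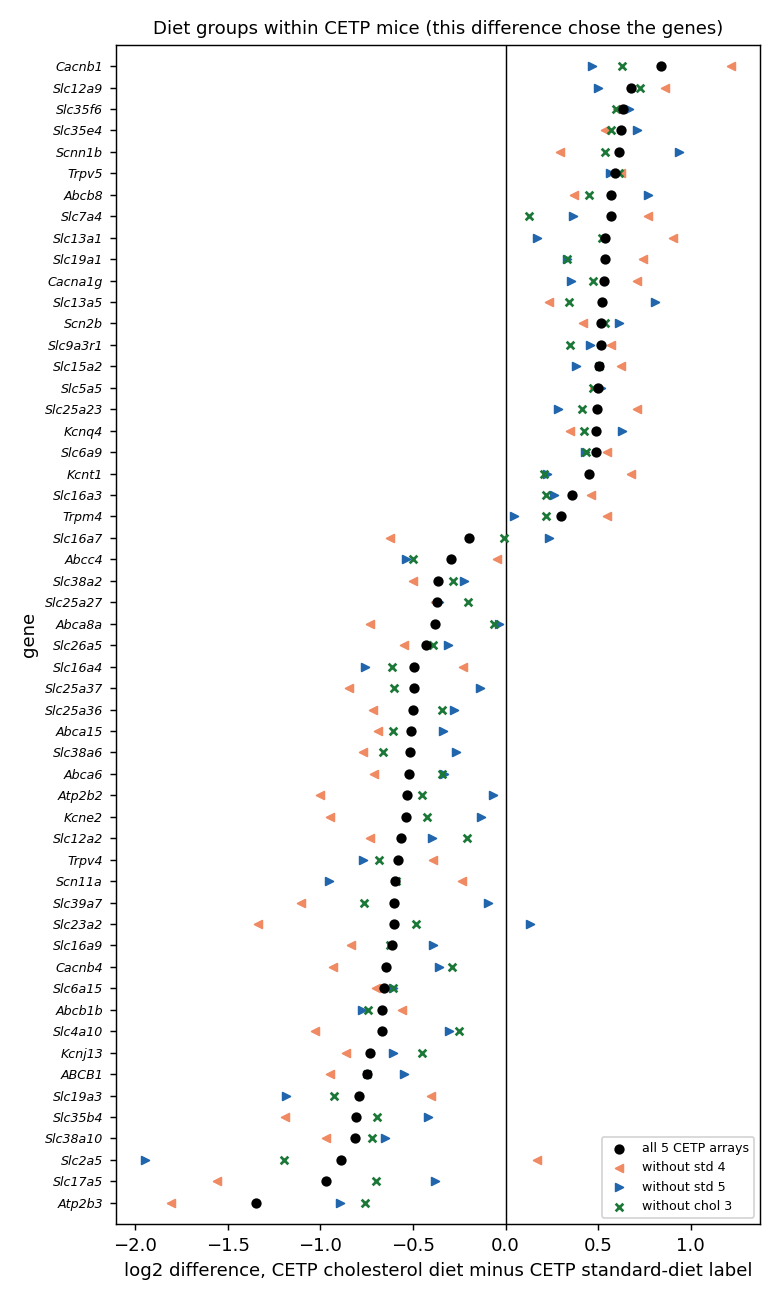
Log2 difference of CETP cholesterol-diet minus CETP standard-diet arrays (horizontal axis) for 54 of the 56 members (vertical axis), with all 5 arrays (black) and leaving out 1 array. Slc2a5 crosses 0 without standard-diet replicate 4, and Slc23a2 and Slc16a7 cross it without replicate 5.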

How the data were processed

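RNA of enriched astrocytes was labelled with biotin from a small input and hybridized to single-colour arrays, per the labels. The authors deposited log2 values, 1 per probe set and array. How probes were background-corrected, summarised and normalized is not given in the sources used here. The log base follows from the deposited fold table, a QIAGEN export per the file headers, whose signed linear folds were used only to learn which groups chose its entries. Of 28846 entries, 22206 transcript cluster probe sets were analysed, and 5222 negative controls gave a background level.

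Symbols were taken from the fold table and matched by chromosome to RefSeq names (GRCm38.p6), 55 by symbol and 1 by a synonym. Coordinates are those of the RefSeq windows.

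A limma model (limma 3.58.1, R 4.3.3) of 3 groups used all 7 arrays, with 4 residual and 5.38 prior degrees of freedom, and p-values (two-sided) were adjusted by Benjamini-Hochberg over all probe sets. The CETP mean weights the 5 arrays equally (0.6 and 0.4 by group). Figures and summaries used Python 3.11.15, numpy 2.4.6, pandas 2.3.3 and matplotlib 3.10.9. The model was checked on simulated data.

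The members, role groups, marker lists and naming rule were chosen with earlier results of these data known. The naming rule takes members without overlap, the 2 of smallest p per role group, members on the astrocyte, microglia, vessel and choroid lists, and the extremes of the diet difference. It named 39 of 56 members, of which 2 are counted but not reported by name here. The other 17 appear mostly in counts and ranges, and any of them named with a value was chosen after its values were seen. Alternatives were omitting each array, equal group weights, quantile or median scaling, removal of dim probe sets, weighting arrays by quality, another variance prior, the replicate number or the leading animal digit as a block, 1 probe set per gene, and any symbol with the prefixes. Precision is limited by how few arrays there are. Each array held a separate animal by its label.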

Additional observations from a re-analysis of the deposited data

Results flagged for a closer look

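For 4 of the 56 members every array of one CETP group lay above the wild-type mean and every array of the other below it. The pattern was seen in 2.71% of all probe sets. It requires CETP groups that do not overlap, so the choice of members fixes the member count in part, and nothing was read from it. The difference between the CETP groups was not tested, because it chose the members. Slc6a9 differed from wild type by 0.345 on the cholesterol diet and by -0.14 under the standard-diet label. For Slc12a9 these differences were 0.23 and -0.45, and for Slc13a1 they were 0.0915 and -0.45. Slc26a5, the prestin gene, ran the other way at -0.21 and 0.22, and stayed under the negative control median on all 7 arrays. In none of the 4 did both CETP groups lie beyond both wild-type arrays.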

How the results depend on the processing

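No member passed an adjusted p of 0.05 in limma under any of the 17 alternatives, and the 7 members with an unadjusted p under 0.05 kept their sign in all that were run for them. Among all members, 29 kept their sign throughout and 27 turned in at least 1. Not all alternatives could change a member's result. Taking 1 probe set per gene, or any symbol with the prefixes, reuses the main fit and changes only which members are counted. Another variance prior leaves the differences and their signs as they were. Leaving out 1 array gave 0 probe sets past the threshold each time, 5 to 9 members at an unadjusted p under 0.05, and member medians of 0.045 to 0.15 for CETP minus wild type and -0.026 to 0.061 for the cholesterol diet minus wild type. The median for the standard-diet label minus wild type was 0.046 without replicate 5 and 0.32 without replicate 4. The filter on dim probe sets, which kept 43 members, left 3 at an unadjusted p under 0.05. It removed Scn2b, Cacna1g and Slc16a3, and for the other lost member the cause was not tested. With the replicate block, which compares only cholesterol-diet replicates 2 and 3 with their wild-type numbers and leaves out the other 3 CETP arrays, 7 probe sets passed an adjusted p of 0.05, of which 0 were members, and the member median was -0.026. The samples share only a number: deviations of same-numbered arrays correlated at 0.0083 and 0.037. The standard-diet label shares no number with wild type, so its median could not be fitted with either block. With 2 wild-type arrays, small differences were not detectable.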
